A study of Homo sapiens with 12 samples.

Results

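The genes of glycolysis and the pentose phosphate pathway were examined as a group of 35 protein-coding genes, out of 19970 protein-coding genes on chromosomes 1 to 22 and X, by the mark H3K27ac around their ends. The members are named by their role in these pathways, and the rule uses no measured value, although the list was drawn up with earlier results of these data known. It holds 2 glucose transporters, 8 genes of upper glycolysis, 3 genes of the PFKFB family together with TIGAR, 7 genes of lower glycolysis, 4 genes of lactate handling, 4 pyruvate dehydrogenase kinases and 6 genes of the pentose phosphate pathway. For each gene, the bases covered by called peaks within 5 kb of a gene end were counted in every library, at whichever end had the larger mean over the 12 libraries. This count of bases is called the covered length.

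Glycolysis splits glucose into pyruvate, and tumour cells often turn much of that pyruvate into lactate and export it. The pentose phosphate pathway branches off after the first step and makes NADPH and the ribose of nucleotides. Pancreatic ductal adenocarcinoma is known for high glucose uptake and for poorly oxygenated tissue, in which hypoxia raises many glycolytic genes. H3K27ac, acetylation of lysine 27 on histone H3, marks active promoters and enhancers, so a wide covered length reports acetylated chromatin and not the amount of transcript or enzyme.

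The study mapped H3K27ac by ChIP-seq in human pancreatic ductal adenocarcinoma lines, with 12 libraries in 6 groups of 2. MiaPaCa2 and CFPAC1 were each profiled as bulk lines after 2 h with 1000 U/ml human IFN-β and untreated. The other groups were clonal CFPAC1 lines isolated by dilution, IRF1 knockout clones infected with a lentiCRIPSv2 plasmid for Cas9 and a guide against IRF1, and WT clones infected with lentiCRIPSv2, both without IFN-β in their labels. Each clonal library stands for 1 clone, and nothing says that the paired libraries of a bulk line came from separate cultures, so the p-values below measure the spread between these libraries, which may be technical. MiaPaCa2 was grown in DMEM and CFPAC1 in IMDM, so line and medium cannot be told apart.

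The MiaPaCa2 libraries held 59896 to 85442 peaks over 63.6 to 78.2 Mb, the bulk CFPAC1 libraries 85658 to 102857 peaks over 76.6 to 94.8 Mb, and the clone libraries 80618 to 109861 peaks over 75.6 to 90.8 Mb. Read depth is unknown. The epithelial genes CDH1 and EPCAM had no peak in any of the 4 MiaPaCa2 libraries and 3203 to 5312 bp in all 8 CFPAC1 libraries, while the leukocyte gene PTPRC and the endothelial gene VWF had none in any of the 12. Of 10 epithelial genes, 5 were covered in MiaPaCa2 with a summed length of 39007 to 45149 bp, against 10 in CFPAC1 with 50177 to 73639 bp. The list was mixed. CLDN4 was wider in MiaPaCa2 (8666 to 9104 bp) than in CFPAC1 (7130 to 7629 bp), and KRT8, KRT18 and KRT19 were wide in both lines. Of 5 mesenchymal genes, 2 to 3 were covered in MiaPaCa2 (11898 to 13747 bp) and 3 to 4 in CFPAC1 (10543 to 18197 bp). The part of these marker differences in the differences between lines was not tested. Leukocyte genes (4) summed to 398 to 3702 bp in MiaPaCa2 and 1588 to 2981 bp in CFPAC1, and endothelial genes (3) to 3711 to 6073 bp in MiaPaCa2 and 3418 to 7118 bp in CFPAC1. Of 11 interferon-response genes used as a label check, 7 rose with IFN-β in MiaPaCa2 and 8 in CFPAC1 (limma, adjusted p under 0.05). The IRF1 window held 7533 and 8924 bp in the knockout clones, against 5485 and 5611 bp in the WT clones; a histone mark around the gene does not test the deletion.

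The group was widely acetylated. Peaks lay in the windows of 29 of the 35 genes (82.9%) in all 12 libraries, against 11165 of all 19970 genes (55.9%), and the median over genes of the mean covered length was 3550 bp, against 1609 bp for all genes. PKM, the pyruvate kinase that makes pyruvate, had the highest mean at 8507 bp, followed by the enolase ENO1 at 7891 bp and GAPDH at 7039 bp. SLC2A3, the high-affinity transporter GLUT3, had the lowest at 229 bp, and HK1, a broadly expressed hexokinase, the next lowest at 401 bp. The HK1 window lay at the far end of the gene beside TACR2; within the gene, the annotated starts at 69318181 and 69319064 on chromosome 10 had a peak within 500 bp in 12 of 12 libraries. The 6 genes not covered in every library were SLC2A3 (5 of 12), HK1, LDHB and PFKFB2 (8 each), PDK4 (9) and PFKFB4 (11).

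The fold of a peak over background is the authors' own value and was ranked within its own library. The median over covered member windows of the strongest peak lay between the 89.8th and the 94.9th percentile of all peaks of the library, beside 85.8 to 91.3 for the covered windows of all genes. In each library the median of the members was above that of all genes, a description with no test. ALDOA, ENO1, GAPDH, PFKM and PKM had a strongest peak at or above the 96.2nd percentile in every library. At the low end, the best HK1 peak ranged from the 6.64th to the 59.5th percentile where there was one. Peaks were also counted within 5 kb of either end of each gene, not only in the window used, and summed over the 35 genes. This number ranged from 106 to 163 in MiaPaCa2 libraries, from 116 to 163 in bulk CFPAC1 libraries and from 142 to 194 in the clones.

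**Figure D1:**
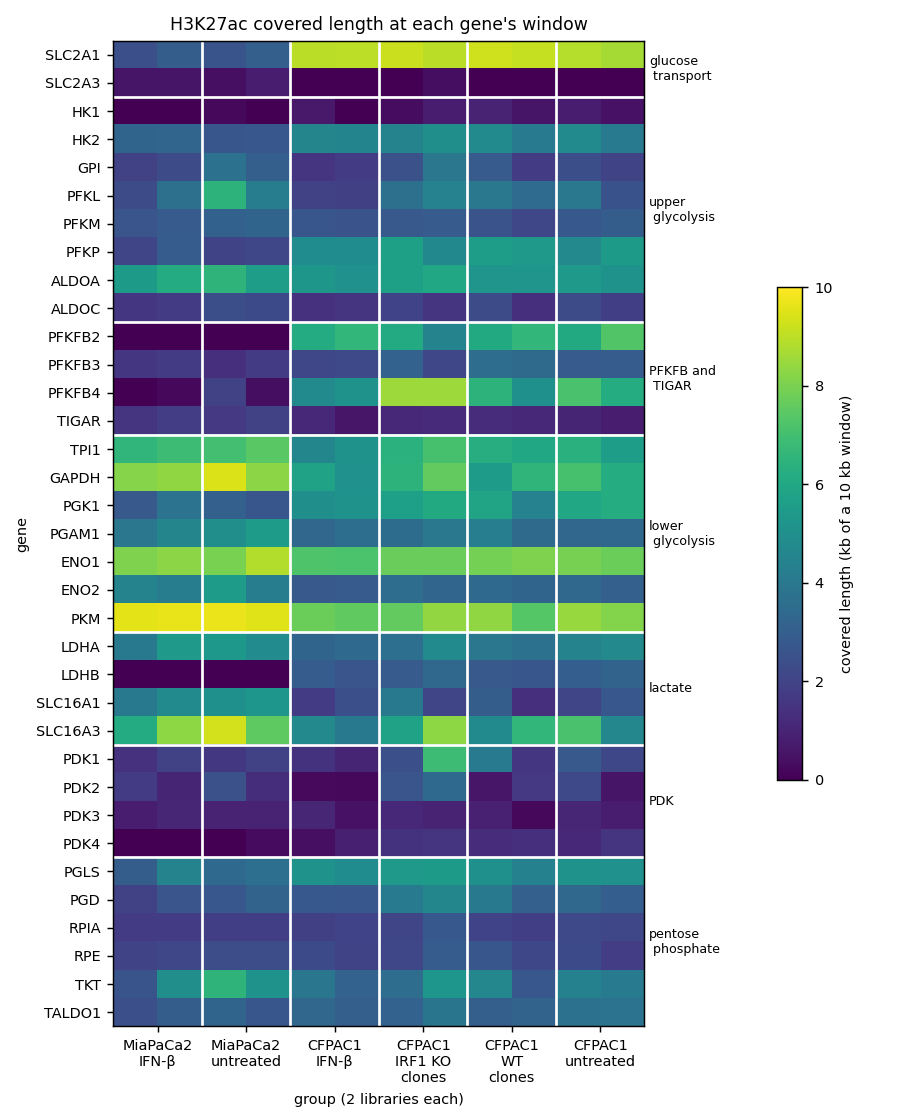
Covered length (kb, colour) in the window of each of the 35 genes (rows, by role) in each of the 12 libraries (columns, 2 per group). PKM, ENO1 and GAPDH are bright in every library, SLC2A3 and HK1 dark in nearly all, and SLC2A1, PFKFB2, PFKFB4 and LDHB are brighter in all 8 CFPAC1 libraries than in the 4 MiaPaCa2 libraries.

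The promoters of 5 genes are shown. LDHB, SLC2A1, PGK1 and TIGAR are among the genes whose windows differed between the lines. Within 2 kb of the start, though, the difference was smaller at SLC2A1 and did not pass at PGK1 (given below). PFKM is the sole member with an interferon-factor motif, held by 2 of its overlapping promoter entries, of which 1 is shown. Each runs from 250 bases before to 50 bases after an annotated start, 5′ to 3′ on the gene's strand, from RefSeq on GRCh38.p14. They are LDHB at chr12:21657793-21658092 (minus), SLC2A1 at chr1:42958819-42959118 (minus), PGK1 at chrX:78103998-78104297 (plus), TIGAR at chr12:4320963-4321262 (plus) and PFKM at chr12:48105103-48105402 (plus). Capitals mark ACGTG or GCGTG on either strand, cores of the hypoxia response element, and in PFKM also the interferon-regulatory-factor (IRF) motif, a pair of GAAA runs 2 bases apart.
LDHB: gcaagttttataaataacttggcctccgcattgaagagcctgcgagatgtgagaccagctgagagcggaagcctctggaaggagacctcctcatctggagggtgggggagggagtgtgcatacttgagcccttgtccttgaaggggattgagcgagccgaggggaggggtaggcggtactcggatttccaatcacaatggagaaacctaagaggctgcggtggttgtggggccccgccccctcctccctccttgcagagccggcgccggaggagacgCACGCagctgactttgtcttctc
SLC2A1: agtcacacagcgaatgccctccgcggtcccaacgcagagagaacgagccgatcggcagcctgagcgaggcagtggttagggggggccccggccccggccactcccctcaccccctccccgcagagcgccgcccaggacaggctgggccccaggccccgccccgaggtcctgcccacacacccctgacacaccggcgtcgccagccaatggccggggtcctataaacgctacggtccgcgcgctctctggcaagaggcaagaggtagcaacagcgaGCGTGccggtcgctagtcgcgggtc
PGK1: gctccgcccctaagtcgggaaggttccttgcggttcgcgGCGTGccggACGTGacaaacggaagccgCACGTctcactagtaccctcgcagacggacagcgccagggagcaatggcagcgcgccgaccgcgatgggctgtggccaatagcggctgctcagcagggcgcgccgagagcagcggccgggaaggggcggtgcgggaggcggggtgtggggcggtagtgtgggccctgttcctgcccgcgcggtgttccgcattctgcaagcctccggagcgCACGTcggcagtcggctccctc
TIGAR: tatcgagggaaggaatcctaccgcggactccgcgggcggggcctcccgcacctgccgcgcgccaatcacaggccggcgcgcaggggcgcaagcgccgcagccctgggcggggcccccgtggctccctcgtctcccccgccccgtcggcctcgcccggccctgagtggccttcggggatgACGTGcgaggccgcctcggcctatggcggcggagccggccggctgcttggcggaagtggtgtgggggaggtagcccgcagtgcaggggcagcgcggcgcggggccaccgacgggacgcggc
PFKM: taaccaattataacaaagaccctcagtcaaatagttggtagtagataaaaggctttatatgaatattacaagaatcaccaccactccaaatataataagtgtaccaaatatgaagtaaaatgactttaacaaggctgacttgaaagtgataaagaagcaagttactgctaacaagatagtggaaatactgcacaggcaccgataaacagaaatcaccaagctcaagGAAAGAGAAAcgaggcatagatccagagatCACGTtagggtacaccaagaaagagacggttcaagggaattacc
A peak overlapped the LDHB promoter in 0 of 4 MiaPaCa2 libraries and in 8 of 8 CFPAC1 libraries, whereas the SLC2A1, PGK1 and PFKM promoters were overlapped in all 12. The TIGAR promoter was overlapped in 4 of 4 MiaPaCa2 libraries, in 2 of 4 bulk CFPAC1 libraries and in 3 of 4 clones.

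MiaPaCa2 differed from CFPAC1 at 20 of these genes untreated and 18 with IFN-β, in both directions. In the untreated lines 20 of the 35 (57.1%) passed an adjusted p of 0.05, 10 higher and 10 lower in MiaPaCa2, against 48.9% of the 15509 genes tested (29% called higher and 19.9% lower). With IFN-β in both lines it was 18 of 35 (51.4%), 9 higher and 9 lower, against 42.5% of all genes (24.6% higher and 17.9% lower). The shares of the 35 lie near those of all genes. The higher calls depended on single libraries more than the lower ones. With 1 library left out in turn, the untreated comparison gave 4 to 8 higher and 9 to 10 lower calls. The IFN-β comparison gave 1 higher call without the first MiaPaCa2 library, 5 without the second, and 3 without either CFPAC1 library, beside 8 to 9 lower calls. Under quantile normalization the untreated split was 5 higher and 11 lower. Of the 10 genes higher in untreated MiaPaCa2, 7 were also higher with IFN-β (70% of the untreated and 77.8% of the IFN-β list), and of the 10 lower, 9 were also lower (90% and 100%). The median log2 change over the 35 was 0.19 untreated and 0.14 with IFN-β, beside 0.14 and 0.10 over all genes tested. Changes throughout are log2 differences in covered length plus 500 bp, MiaPaCa2 minus CFPAC1 between lines, IFN-β minus untreated and knockout minus WT clones further on, from limma with standard error and Benjamini-Hochberg adjusted p.

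By role, the untreated calls fell as follows, beside 29% of all genes called higher and 19.9% lower. Of the 7 lower-glycolysis genes, 5 were higher in untreated MiaPaCa2 and 1, PGK1, was lower. With IFN-β in both lines, 4 of them were higher and 1 was lower. Of the 4 genes of the PFKFB and TIGAR group, TIGAR was higher and the 3 PFKFB genes were lower. Upper glycolysis was split, 2 higher and 2 lower of 8, and of the 6 pentose phosphate genes 0 were higher and 1, PGLS, was lower. Lactate genes gave 1 higher and 1 lower of 4, and glucose transporters 1 and 1 of 2. The pyruvate dehydrogenase kinases gave 0 higher and 1 lower of 4. The roles hold few genes and were not tested as sets. In the line comparisons below, a lack of overlap between groups is a description. With so few libraries a group it can readily arise by chance, and its share among all genes is not given. It therefore adds no support beyond the test.

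SLC2A1, the main glucose transporter GLUT1 (chr1:42925353-42958868), had the widest contrast among the genes covered in every library. Its window held 2599 and 3024 bp in untreated MiaPaCa2, against 8890 and 8666 bp in untreated CFPAC1. Under IFN-β, SLC2A1 held 2427 and 2953 bp in MiaPaCa2, against 8959 and 8989 bp in CFPAC1. No MiaPaCa2 library came near the lowest CFPAC1 value, and the log2 change was -1.43 ± 0.09 untreated (SE, adjusted p = 1.76e-06, limma) and -1.58 ± 0.09 with IFN-β (adjusted p = 9.57e-07, limma). The clones were like bulk CFPAC1, with 9204 and 8984 bp in knockout and 9265 and 9105 bp in WT clones. Within 2 kb of the start the contrast was smaller, -0.29 ± 0.08 untreated (adjusted p = 0.0138, limma) and -0.61 ± 0.08 with IFN-β (adjusted p = 1.56e-04, limma), and every library had a peak at the promoter shown above. From 20 kb before to 20 kb after the gene, 27 segments of at least 200 bp, 21421 bp in sum, were covered in all 4 bulk CFPAC1 libraries and in no MiaPaCa2 library, and peaks touched all 27 in all 4 clones. The longest was 3063 bp at chr1:42959740-42962802, from -3934 to -872 bp relative to the start.

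SLC2A3 went the other way at a low level. It held 424 and 811 bp in untreated MiaPaCa2 and 552 and 579 bp in MiaPaCa2 with IFN-β, whereas all 4 bulk CFPAC1 libraries and both WT clones had no peak there; knockout clones had 0 and 387 bp. The groups did not overlap and both comparisons passed the test (adjusted p = 0.00707 and 0.0128, limma). Outside MiaPaCa2 only a knockout clone had a peak, so the gene was kept for testing through the line where it was higher. Its window end was chosen on the same values. The p-values do not allow for these choices, so they are weak support for a difference. No fold is given for a group with no peak, here and below, because it is set by the added 500 bp. Its best peaks were weak, at folds of 3.69 to 5.99.

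In upper glycolysis, PFKP and HK2 were lower in MiaPaCa2. PFKP, the platelet-type phosphofructokinase (chr10:3067548-3136805), held 2051 and 2126 bp in untreated MiaPaCa2, against 4691 and 5464 bp in untreated CFPAC1. Under IFN-β, PFKP held 2108 and 2915 bp in MiaPaCa2, against 4880 and 4879 bp in CFPAC1. The lines did not overlap, at -1.05 ± 0.11 untreated (adjusted p = 5.90e-05, limma) and -0.86 ± 0.11 with IFN-β (adjusted p = 2.35e-04, limma). The PFKP window also holds an end of LOC124902536. HK2, the inducible hexokinase of many tumours (chr2:74834127-74893359), held 2679 and 2711 bp in untreated MiaPaCa2, against 4734 and 4119 bp in untreated CFPAC1. Under IFN-β, HK2 held 3215 and 3261 bp in MiaPaCa2, against 4533 and 4529 bp in CFPAC1. HK2 values again did not overlap, at -0.56 ± 0.10 (adjusted p = 0.00149, limma) and -0.43 ± 0.10 (adjusted p = 0.00710, limma).

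Close to the start neither difference passed. Within 2 kb, PFKP differed by -0.21 ± 0.14 untreated (adjusted p = 0.247, limma) and HK2 by -0.15 ± 0.13 (adjusted p = 0.381, limma). Segments covered in all 4 bulk CFPAC1 libraries and no MiaPaCa2 library summed to 4427 bp in 7 segments at PFKP and 9136 bp in 12 segments at HK2, and peaks in all 4 clones touched 7 of the 7 and 10 of the 12.

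PFKL and GPI passed as higher in MiaPaCa2 in the untreated comparison and not with IFN-β. The PFKL window shares an end of AIRE. The GPI window shares an end of GARRE1 and stops at 34364718 on chromosome 19, short of the annotated GPI start at 34364992. PFKL, the liver-type phosphofructokinase, held 6475 and 4208 bp in untreated MiaPaCa2, against 3992 and 2514 bp in untreated CFPAC1, and 2270 and 3696 bp in MiaPaCa2, against 1931 and 1882 bp in CFPAC1, with IFN-β. GPI, the glucose-6-phosphate isomerase, held 3728 and 3017 bp in untreated MiaPaCa2, against 2397 and 2062 bp in untreated CFPAC1, and 1938 and 2303 bp in MiaPaCa2, against 1487 and 1733 bp in CFPAC1, with IFN-β. Neither gene's groups overlapped in either comparison, which adds no support to the contrasts with IFN-β that did not pass. The untreated replicates of PFKL lay far apart. PFKL differed by 0.70 ± 0.23 untreated (adjusted p = 0.0288, limma) and 0.50 ± 0.23 with IFN-β (adjusted p = 0.107, limma), and GPI by 0.56 ± 0.20 untreated (adjusted p = 0.0452, limma). Of 17 alternatives to the processing, the untreated call was lost in 11 for GPI and 7 for PFKL. The difference between the IFN-β and untreated contrasts passed the test for neither. The other 4 genes of upper glycolysis, HK1, PFKM and the aldolases ALDOA and ALDOC, passed in neither comparison.

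The PFKFB genes encode the bifunctional enzymes that set fructose 2,6-bisphosphate, the activator of phosphofructokinase, and TIGAR encodes a p53-induced phosphatase that lowers it. PFKFB2 had no peak in any MiaPaCa2 library, against 6089 and 7277 bp in untreated CFPAC1, 6134 and 6617 bp in CFPAC1 with IFN-β, 6116 and 4484 bp in knockout clones and 6084 and 6615 bp in WT clones. It had the smallest p of all 35 in both line comparisons (adjusted p = 7.29e-08 and 8.06e-08, limma). Its window (around the boundary of the gene at chr1:207034416-207081027) also holds an end of C1orf116, so the peaks cannot be assigned to either gene by position. In all, 11 segments and 18704 bp were covered in all bulk CFPAC1 and no MiaPaCa2 library, the longest, 6570 bp at chr1:207027378-207033947, outside PFKFB2.

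PFKFB4 held 1955 and 382 bp in untreated MiaPaCa2, against 7134 and 6190 bp in untreated CFPAC1. Under IFN-β, PFKFB4 held 0 and 210 bp in MiaPaCa2, against 4728 and 5145 bp in CFPAC1. The lines were far apart, at -2.22 ± 0.35 (adjusted p = 6.37e-04, limma) and -3.19 ± 0.35 (adjusted p = 6.43e-05, limma), but the window sits at the outer gene boundary and shares ends of COL7A1 and UCN2. With IFN-β the MiaPaCa2 values lay below the added 500 bp, so the size of that change depends strongly on this added length. Around the annotated start at 48556803 on chromosome 3, which had a peak within 500 bp in 12 of 12 libraries, the untreated difference was -0.36 ± 0.20 (adjusted p = 0.165, limma), and with IFN-β it was -0.68 ± 0.20 (adjusted p = 0.0212, limma).

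PFKFB3 held 1359 and 1726 bp in untreated MiaPaCa2, against 2861 and 2898 bp in untreated CFPAC1, with no overlap (-0.67 ± 0.16, adjusted p = 0.00592, limma). Under IFN-β, PFKFB3 held 1582 and 1750 bp in MiaPaCa2, against 2148 and 2205 bp in CFPAC1, which did not pass the test. The untreated difference was 0.08 ± 0.13 within 2 kb of the gene end (adjusted p = 0.678, limma) and -0.73 ± 0.09 over 5 kb around both annotated starts (adjusted p = 1.58e-04, limma). Along the gene, 19 segments, 15566 bp in sum, were covered in all bulk CFPAC1 and no MiaPaCa2 library.

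TIGAR was higher in MiaPaCa2 and its peak was also stronger there. It held 1655 and 1928 bp in untreated MiaPaCa2, against 1019 and 796 bp in untreated CFPAC1. Under IFN-β, TIGAR held 1550 and 1824 bp in MiaPaCa2, against 1094 and 600 bp in CFPAC1. The lines did not overlap, at 0.76 ± 0.20 (adjusted p = 0.00975, limma) and 0.72 ± 0.20 (adjusted p = 0.0149, limma). Its best peak ranked between the 91st and 97.2nd percentile of each MiaPaCa2 library and between the 60.6th and 79.9th percentile of each bulk CFPAC1 library.

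**Figure D2:**
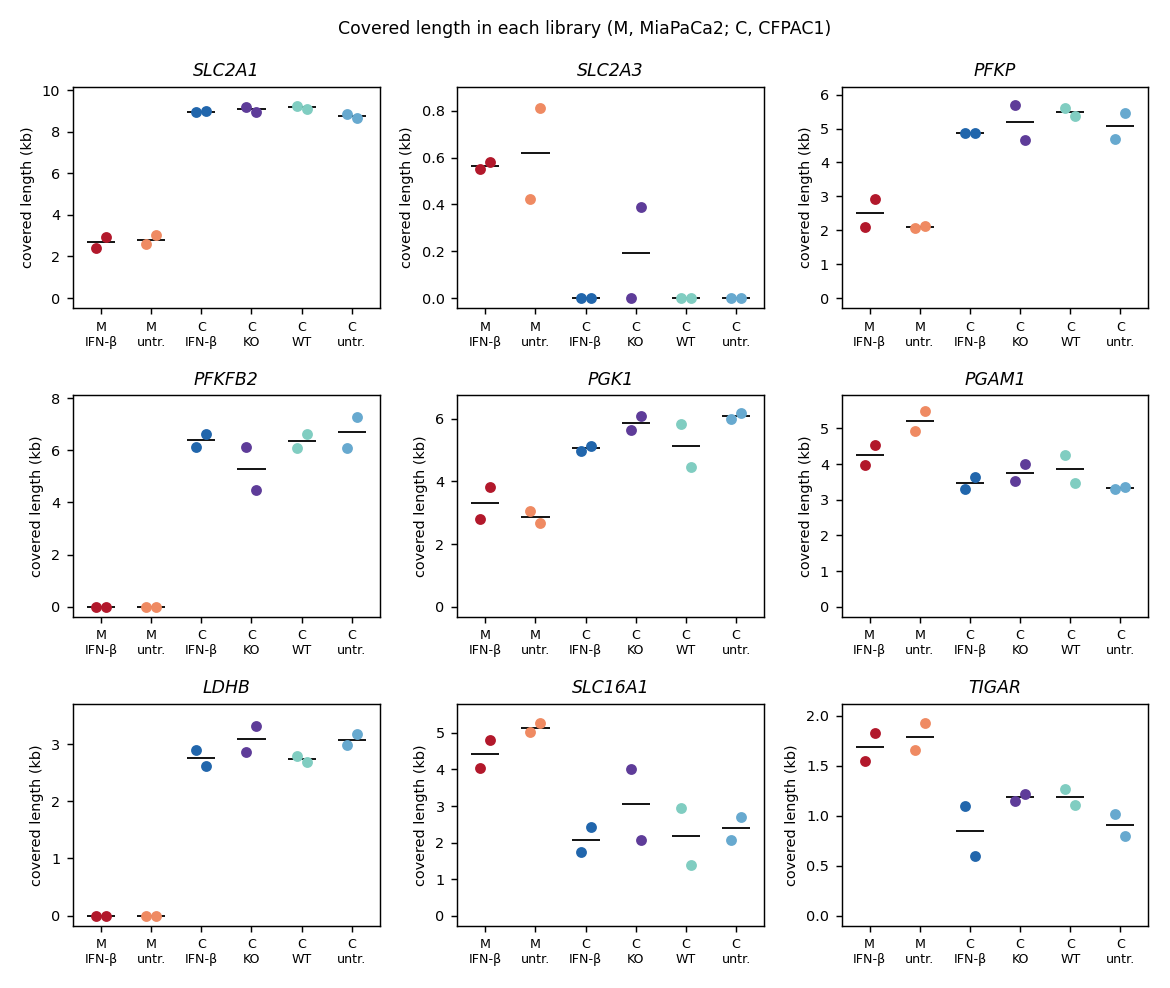
Covered length (kb) of 9 genes in each library (points, 2 per group) with the group mean (bar), MiaPaCa2 (M) groups left of CFPAC1 (C) groups. SLC2A1, PFKP, PFKFB2, PGK1 and LDHB are lower in all 4 MiaPaCa2 libraries than in any CFPAC1 library, and PFKFB2 and LDHB are at 0 there.

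In lower glycolysis, most genes were modestly wider in MiaPaCa2. PGAM1, the phosphoglycerate mutase, held 4923 and 5478 bp in untreated MiaPaCa2, against 3289 and 3371 bp in untreated CFPAC1. Under IFN-β, PGAM1 held 3983 and 4543 bp in MiaPaCa2, against 3297 and 3630 bp in CFPAC1. Neither comparison overlapped, and the first passed the test at 0.63 ± 0.10 (adjusted p = 6.15e-04, limma), the other not (0.26 ± 0.10, adjusted p = 0.0600, limma). ENO2, the neuronal enolase, held 5469 and 4248 bp in untreated MiaPaCa2, against 3384 and 3057 bp in untreated CFPAC1. Under IFN-β, ENO2 held 4461 and 4239 bp in MiaPaCa2, against 2806 and 2875 bp in CFPAC1. These also did not overlap, at 0.58 ± 0.12 (adjusted p = 0.00338, limma) and 0.53 ± 0.12 (adjusted p = 0.00588, limma), though the ENO2 window lies at the gene's far end and shares an end of ATN1.

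GAPDH, TPI1 and PKM, all wide in every library, were higher by small amounts. GAPDH held 9490 and 8243 bp in untreated MiaPaCa2, against 7073 and 6180 bp in untreated CFPAC1, and with IFN-β 8174 and 8325 bp in MiaPaCa2, against 5757 and 5076 bp in CFPAC1. TPI1, the triose phosphate isomerase, held 7016 and 7460 bp in untreated MiaPaCa2, against 6349 and 5596 bp in untreated CFPAC1, and with IFN-β 6576 and 6843 bp in MiaPaCa2, against 4595 and 5115 bp in CFPAC1. PKM held 9725 and 9515 bp in untreated MiaPaCa2, against 8442 and 8159 bp in untreated CFPAC1, and with IFN-β 9584 and 9687 bp in MiaPaCa2, against 7769 and 7546 bp in CFPAC1. None of the 3 overlapped between lines, but the untreated changes of 0.45 ± 0.15, 0.32 ± 0.10 and 0.26 ± 0.09 stand little above the all-gene median of 0.14 (adjusted p = 0.0279, 0.0299 and 0.0350, limma). With IFN-β they were 0.56 ± 0.15, 0.43 ± 0.10 and 0.31 ± 0.09 (adjusted p = 0.0117, 0.00886 and 0.0190, limma). The GAPDH window also holds ends of IFFO1 and NCAPD2 and that of TPI1 ends of SPSB2 and USP5, and within 2 kb GAPDH differed by 0.04 ± 0.06 untreated. The PKM call was lost in 10 of 17 alternatives untreated and in 9 of 17 with IFN-β. ENO1 passed in neither comparison.

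PGK1, the phosphoglycerate kinase that makes the pathway's first ATP (chrX:78104248-78129295), was lower. It held 3065 and 2686 bp in untreated MiaPaCa2, against 5985 and 6183 bp in untreated CFPAC1. Under IFN-β, PGK1 held 2802 and 3818 bp in MiaPaCa2, against 4963 and 5143 bp in CFPAC1. The lines did not overlap, at -0.91 ± 0.10 (adjusted p = 8.58e-05, limma) and -0.56 ± 0.10 (adjusted p = 0.00192, limma). Around the promoter shown above, within 2 kb, the change was -0.15 ± 0.09 untreated (adjusted p = 0.214, limma), and with IFN-β 0.04 ± 0.09. The 3 segments covered in all bulk CFPAC1 and no MiaPaCa2 library, 1199 bp in sum, ran from 2029 to 5002 bp into the gene.

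**Figure D3:**
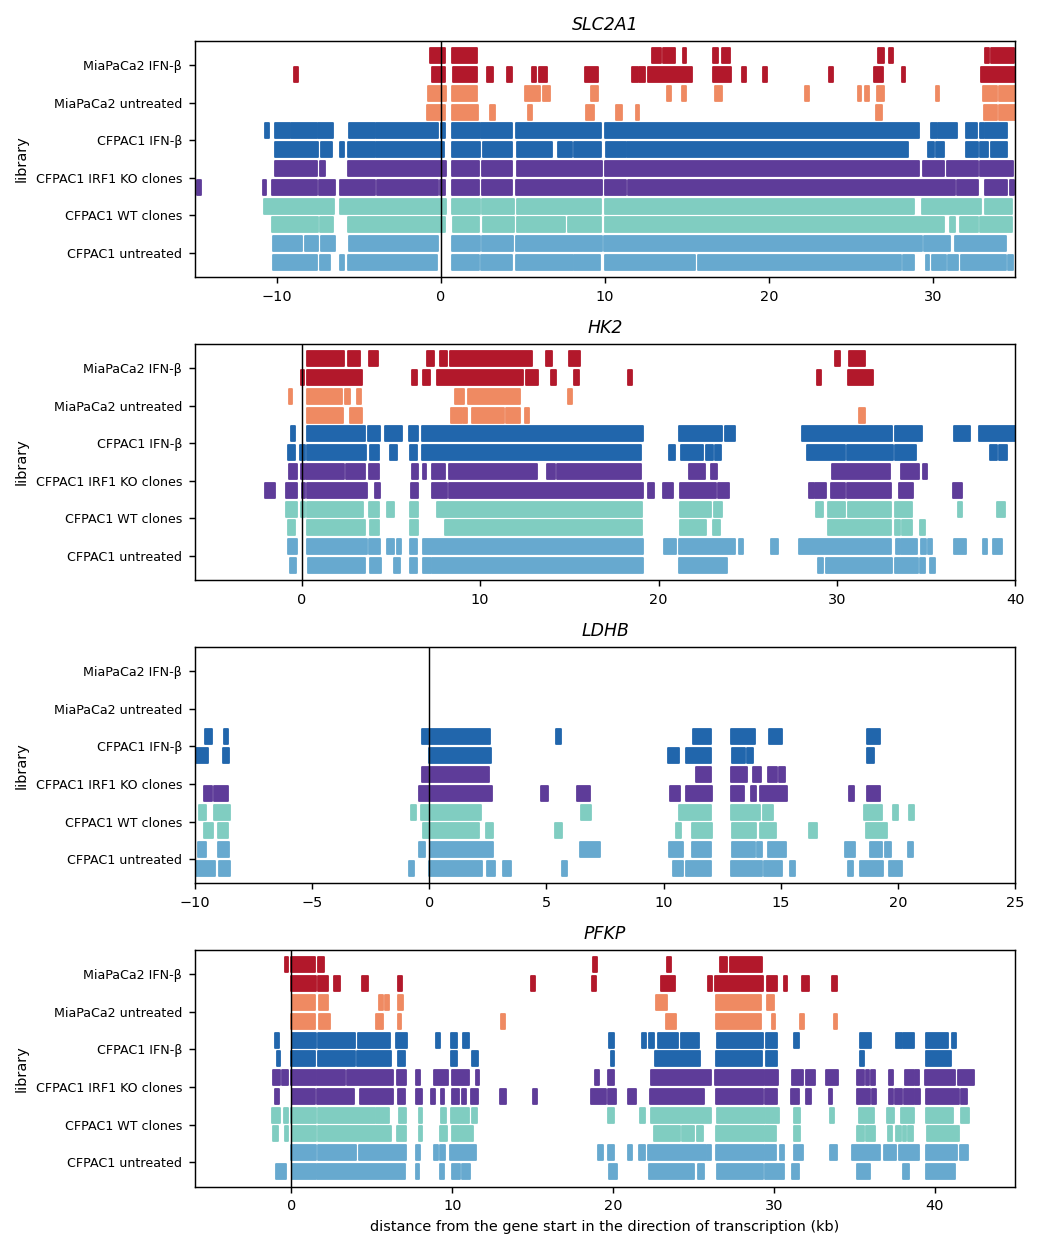
Called peaks (bars) of each library (rows, 2 per group) around the starts of SLC2A1, HK2, LDHB and PFKP, by distance from the gene start in kb in the direction of transcription. MiaPaCa2 has promoter peaks at SLC2A1, HK2 and PFKP but less of each gene's body covered than CFPAC1, and no peak at LDHB.

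Lactate genes differed most at LDHB. LDHB encodes the heart-type subunit of lactate dehydrogenase, which favours turning lactate back into pyruvate (chr12:21635342-21657842). It had no peak in any MiaPaCa2 library, against 2978 and 3170 bp in untreated CFPAC1, 2902 and 2626 bp in CFPAC1 with IFN-β, 2870 and 3321 bp in knockout clones and 2786 and 2681 bp in WT clones (adjusted p = 3.78e-07 and 4.93e-07 for the line comparisons, limma). The acetylated stretch in CFPAC1, chr12:21655585-21657817, covers 2233 bp from 25 bp after the annotated start, and the strongest peak of the window ranked between the 85.0th and 93.5th percentile of each CFPAC1 library. No other gene end shares that window.

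LDHA, the muscle-type subunit that favours lactate, was covered in both lines. It held 5336 and 4808 bp in untreated MiaPaCa2, against 4483 and 4692 bp in untreated CFPAC1, and 4026 and 5399 bp in MiaPaCa2, against 3215 and 3425 bp in CFPAC1, with IFN-β. The groups did not overlap, and the IFN-β comparison passed (0.43 ± 0.13, adjusted p = 0.0199, limma) while the untreated one did not. SLC16A1, the lactate and pyruvate carrier MCT1, held 5031 and 5263 bp in untreated MiaPaCa2, against 2077 and 2712 bp in untreated CFPAC1. Under IFN-β, SLC16A1 held 4045 and 4797 bp in MiaPaCa2, against 1743 and 2423 bp in CFPAC1. It was higher in both, at 1.03 ± 0.28 (adjusted p = 0.0117, limma) and 0.93 ± 0.28 (adjusted p = 0.0208, limma), and its best peak was at folds of 22.4 to 46.2 in MiaPaCa2 and 6.41 to 9.01 in bulk CFPAC1. The clones were wider apart, with 4024 and 2083 bp in knockout and 2951 and 1397 bp in WT clones. SLC16A3, the lactate exporter MCT4, did not pass in either comparison, with values from 4031 to 9333 bp over the 12 libraries.

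The pyruvate dehydrogenase kinases switch off the complex that feeds pyruvate to the mitochondria. PDK4 held 0 and 287 bp in untreated MiaPaCa2, against 1171 and 1536 bp in untreated CFPAC1, at -1.50 ± 0.27 (adjusted p = 0.00145, limma). With IFN-β it had no peak in MiaPaCa2, against 415 and 873 bp in CFPAC1 (adjusted p = 0.00641, limma), so the lines did not overlap in either. PDK2 held 2499 and 1311 bp in untreated MiaPaCa2, against 2212 and 583 bp in untreated CFPAC1, which overlapped. Under IFN-β, PDK2 held 1748 and 1039 bp in MiaPaCa2, against 257 and 200 bp in CFPAC1, at 1.35 ± 0.48 (adjusted p = 0.0474, limma), a call lost in 10 of 17 alternatives. PDK1 and PDK3 passed in neither.

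In the pentose phosphate pathway only PGLS, the 6-phosphogluconolactonase, passed. It held 3411 and 3653 bp in untreated MiaPaCa2, against 5151 and 5077 bp in untreated CFPAC1. Under IFN-β, PGLS held 2944 and 4491 bp in MiaPaCa2, against 5106 and 4869 bp in CFPAC1. The lines did not overlap, at -0.42 ± 0.11 (adjusted p = 0.0134, limma) and -0.41 ± 0.11 (adjusted p = 0.0166, limma), and within 2 kb the change was 0.04 ± 0.07 untreated. PGD, RPIA, RPE, TKT and TALDO1, which carry the path on to ribose and back to glycolysis, held from 1771 bp (RPIA) to 6491 bp (TKT) in any library, and none passed in either comparison.

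**Figure D4:**
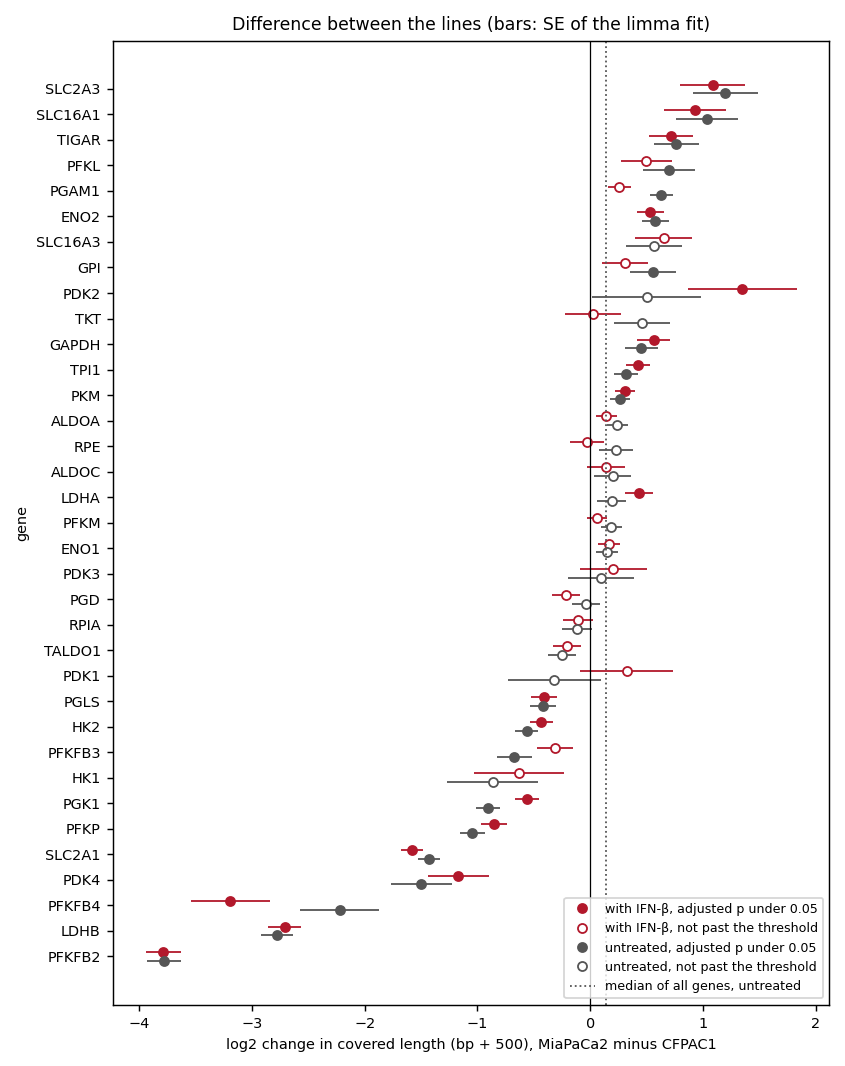
Log2 change in covered length plus 500 bp, MiaPaCa2 minus CFPAC1, for each of the 35 genes with IFN-β (red) and untreated (grey); bars are the SE of the limma fit, filled points passed an adjusted p of 0.05 and the dotted line is the median of all genes. PFKFB2, LDHB, SLC2A3 and, with IFN-β, HK1 and PDK4 have a group with no peak, so their size is set by the added 500 bp. PFKFB4 with IFN-β held less than 500 bp in MiaPaCa2, so its size also depends strongly on the added length.

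IFN-β gave no call in the group. Treatment of 2 h with 1000 U/ml gave 0 of 35 calls in MiaPaCa2, against 0.651% of all genes (0.561% higher, 0.0903% lower), and 0 of 35 in CFPAC1, against 0.987% (0.677% higher, 0.309% lower) (limma, adjusted p of 0.05); 6 genes (17.1%) in MiaPaCa2 and 1 (2.86%) in CFPAC1 had an unadjusted p under 0.05, against 7.29% and 11.2% of all genes. The median change of the 35 was -0.02 in MiaPaCa2 and -0.03 in CFPAC1, beside 0.03 and 0.04 over all genes. The difference of the IFN-β changes between the lines gave 0 calls among the 35, against 0.058% of all genes (0.0258% higher, 0.0322% lower) by limma, with 2 (5.71%) unadjusted p under 0.05, against 7.47% of all genes. The median SE of the 35 changes was 0.15 within a line and 0.21 for the difference.

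The smallest p in MiaPaCa2 belonged to PFKFB4, whose values with IFN-β (0 and 210 bp) lay below those without (1955 and 382 bp), at -1.22 ± 0.35 (adjusted p = 0.269, limma). The values with IFN-β lay below the added 500 bp, so the size of this change depends on that length. The change also depends on 1 library: without the second untreated MiaPaCa2 library it was -1.94, and the difference between the lines was -1.69. HK2 came next with 3215 and 3261 bp with IFN-β, against 2679 and 2711 bp untreated, without overlap (0.31 ± 0.10, adjusted p = 0.411, limma). PFKL held 2270 and 3696 bp with IFN-β, against 6475 and 4208 bp untreated, also without overlap (-0.67 ± 0.23, adjusted p = 0.426, limma).

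In CFPAC1 the smallest p was that of PDK2, with 257 and 200 bp with IFN-β, against 2212 and 583 bp untreated (-1.09 ± 0.48, adjusted p = 0.440, limma). LDHA held 3215 and 3425 bp with IFN-β, against 4483 and 4692 bp untreated (-0.27 ± 0.13, adjusted p = 0.476, limma), and its sign turned when peaks with a -log10 q under 5 were left out (0.09). PDK4 held 415 and 873 bp with IFN-β, against 1171 and 1536 bp untreated (-0.57 ± 0.27, adjusted p = 0.483, limma). None of the 3, which were picked for the smallest p, overlapped between the groups. The IFN-β libraries of CFPAC1 also had fewer peaks in all (85658 and 85948) than the untreated ones (97460 and 102857). The part of these peak numbers in the differences was not tested. PGAM1, PGK1 and PFKFB4 had the smallest p for the difference between the IFN-β changes, MiaPaCa2 minus CFPAC1, at -0.37 ± 0.14, 0.35 ± 0.15 and -0.97 ± 0.50 (adjusted p = 0.560, 0.643 and 0.746, limma).

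The clones labelled IRF1 knockout gave no call in the group either. Of the 35 genes 0 passed between IRF1 knockout and WT clones, against 1.25% of all genes, 0.709% higher and 0.542% lower (limma), and 2 (5.71%) had an unadjusted p under 0.05, against 14.4% of all genes; the median change was 0.04, beside -0.05 over all genes. PFKFB3 held 3158 and 2117 bp in knockout clones, against 3577 and 3453 bp in WT clones (-0.49 ± 0.16, adjusted p = 0.197, limma). PFKFB2 held 6116 and 4484 bp in knockout clones, against 6084 and 6615 bp in WT clones (-0.36 ± 0.15, adjusted p = 0.322, limma). The PFKFB3 values did not overlap and those of PFKFB2 did. The clones also differed in epithelial markers, with a summed length over the 10 genes of 60968 and 50177 bp in knockout clones, against 72905 and 67764 bp in WT clones. GRHL2, an epithelial transcription factor, held 4830 and 299 bp in knockout clones, against 7374 and 6433 bp in WT clones. ESRP1, an epithelial splicing factor, held 4356 and 500 bp in knockout clones, against 4833 and 4278 bp in WT clones, which overlapped. Not all of the 10 fell. KRT19 held 9626 and 9822 bp in knockout clones, against 9701 and 9554 bp in WT clones. CLDN4 held 7487 and 7333 bp, against 7629 and 7315 bp. The part of these markers in the differences between clones was not tested. Without the first knockout clone, the PFKFB3 change was -0.72, against -0.49 with both.

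PDK2 had the largest difference of the 35, with 2628 and 3436 bp in knockout clones, against 598 and 1645 bp in WT clones, without overlap (1.08 ± 0.48, adjusted p = 0.348, limma). It passed when peaks with a -log10 q under 5 were left out (1.71 ± 0.24, adjusted p = 0.0174, limma) and when the 59896 strongest peaks of each library were used (1.56 ± 0.28, adjusted p = 0.0357, limma). Its best peak reached folds of 7.50 and 6.08 in the knockout clones, against 4.35 and 4.51 in WT clones. In bulk CFPAC1 the same window ranged from 200 to 2212 bp, and it shares an end of ITGA3.

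The WT clones and untreated bulk CFPAC1 also gave 0 calls among the 35, against 0.00645% of all genes (limma), with 1 (2.86%) unadjusted p under 0.05, against 6.35% of all genes, and a median change of 0.00, beside 0.01 over all genes. PFKM, the muscle-type phosphofructokinase, held 2550 and 2134 bp in WT clones, against 2760 and 2964 bp in untreated CFPAC1 (-0.23 ± 0.09, adjusted p = 0.714, limma). PGK1 held 5834 and 4446 bp in WT clones, against 5985 and 6183 bp in untreated CFPAC1 (-0.22 ± 0.10, adjusted p = 0.829, limma). PGAM1 held 4268 and 3474 bp in WT clones, against 3289 and 3371 bp in untreated CFPAC1 (0.20 ± 0.10, adjusted p = 0.848, limma). The groups did not overlap at any of the 3 genes, which were picked for the smallest p, so this adds no support.

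**Figure D5:**
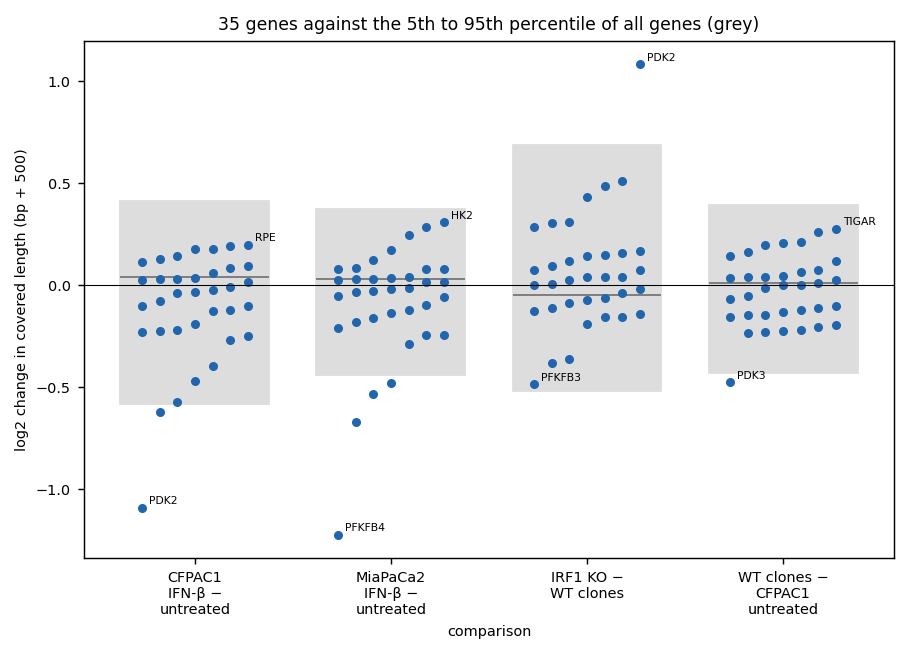
Log2 change in covered length plus 500 bp of the 35 genes (points; spread sideways only for sight) in 4 comparisons, with the 5th to 95th percentile (grey box) and median (grey line) of all genes tested; the lowest and highest gene of each is named. Most points lie within the box, and none passed the test.

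The comparisons that gave no calls share libraries, so their values are not independent of one another. The IFN-β changes and the WT clones of CFPAC1 are set against the same untreated pair, and the WT clones serve as the base for the knockout. Members named in these comparisons were picked for the smallest p, so a lack of overlap between their groups adds no support.

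Other glucose-handling genes, a list of 41 further transporters, mitochondrial pyruvate genes and regulators of which 40 were tested, gave similar shares. In untreated lines 11 were higher and 13 lower in MiaPaCa2 (27.5% and 32.5%), and with IFN-β 9 and 10 (22.5% and 25%). No member of that list passed for IFN-β in either line, for the difference between the lines or for WT clones against bulk CFPAC1, where 4, 1, 4 and 3 had an unadjusted p under 0.05 (limma). SLC16A7, the carrier MCT2, had no peak in any MiaPaCa2 library, against 2512 to 3584 bp in bulk CFPAC1 and 3291 to 4553 bp in the clones (adjusted p = 8.42e-07 untreated, limma).

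PDHX, a structural subunit of the pyruvate dehydrogenase complex, was the sole gene of either list called between the clones (2.5% of this list, against 1.25% of all genes). It held 487 and 522 bp in knockout clones, against 2483 and 1557 bp in WT clones, with no overlap (-1.41 ± 0.15, adjusted p = 0.00558, limma). The part of the epithelial markers given above in this difference was not tested. MiaPaCa2 held 9301 to 9875 bp and bulk CFPAC1 1482 to 2029 bp, a difference between untreated lines of 2.23 ± 0.15 (adjusted p = 1.83e-06, limma). The window is the one at the end of the gene, not at its start.

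Motifs were counted in the promoters as a description. Of the 32 genes with a RefSeq promoter, 18 (56.2%) held ACGTG on either strand, against 28.5% of 15812 genes, and 19 (59.4%) held GCGTG, against 50.4%. Counted per promoter, ACGTG was in 22 of 60 member entries (36.7%), against 23.1% of 22155, and GCGTG in 23 of 60 (38.3%), against 43%, so the order for GCGTG turns with the way of counting. The E-box CACGTG, which contains ACGTG, was in 7 genes (21.9%), against 10.9%, and in 7 promoter entries (11.7%), against 8.34%; these were ALDOA, ALDOC, GAPDH, HK2, LDHA, PDK2 and PFKFB3. The IRF motif was in 1 gene (3.12%), PFKM, against 4.16%, and in 2 promoter entries (3.33%), against 3.17%, and PFKM was not called for IFN-β or between the clones. Genes differ in the number of promoter entries, a match is a description and not a bound site, and no promoter was matched for SLC2A3, PFKFB2 and SLC16A1.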

How the data were processed

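H3K27ac ChIP-seq was measured in 12 libraries of 6 groups. Per the submitters' processing notes the tools were Trimmomatic 0.38, Bowtie2 2.2.6, SAMtools and MACS2 2.1.0.20150731, with GRCh38 as the build; control libraries and calling options are not given in the sources used here. The deposited narrowPeak lists, 1 per library and not pooled, hold peak positions, a display score, the fold enrichment (a ratio over local background), and the −log10 p and −log10 q of each peak, all by the authors. The score was not used. Depth is unknown, so wider calling in a library widens its covered lengths.

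Peaks on chromosomes 1 to 22 and X were merged within each library and their bases counted within 5 kb of each end of 19970 RefSeq protein-coding genes (GRCh38.p14). The end with the larger mean over all libraries was used. Genes covered in at least 2 libraries (15509) were tested on log2(bp + 500), each library centred on its mean, in 1 limma 3.58.1 fit (R 4.3.3) of 6 group means with a trended prior and Benjamini-Hochberg adjustment per comparison, threshold 0.05. The procedure was tested on simulated data with independent noise for each gene and library, which does not cover effects of peak calling or of clones. Python 3.11.15, numpy 2.4.6 and pandas 2.3.3 did the rest.

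Values in every library are given for genes called in any comparison, the 3 smallest p of each comparison, genes with no peak in all libraries of a line and the lowest and highest mean; others are given by range and counts. The members and lists were chosen with earlier results of these data known.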

Additional observations from a re-analysis of the deposited data

How the results depend on the processing

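The alternatives were other offsets (100 and 2000 bp), no filter, no centring, quantile normalization, windows of 2 kb, both gene ends or the gene start, stricter peaks, separate fits, a replicate block and each library left out; a window over every annotated start was added after seeing the data. In the untreated line comparison the count of called genes was 13 over every annotated start, where 32 of the 35 were tested, against 20, and 14 to 17 with 1 library left out. With IFN-β in both lines it was 9 to 13 with 1 library left out, against 18; it was 11 (3 higher and 8 lower) without the first CFPAC1 and 9 (1 higher and 8 lower) without the first MiaPaCa2 library. Leaving out a library gave 0 to 1 call for IFN-β in MiaPaCa2, for the difference between the lines and for the knockout clones, and 0 for IFN-β in CFPAC1 and for WT clones against bulk CFPAC1. For the knockout clones 1 gene was called with a −log10 q of at least 5 and 1 with equal numbers of peaks. Within 2 kb the sign turned for PFKFB3 (0.0762) and PGLS (0.0447) untreated and for GAPDH (-0.041) and PGK1 (0.0445) with IFN-β. With stricter peaks and with equal numbers it turned for LDHA with IFN-β in CFPAC1 (0.087 and 0.0405) and for PFKFB4 in the difference between the lines (0.27 and 0.25). None of these turned values passed the test, and the cause was not tested. Quantile normalization gave 5 higher and 11 lower of the 35 in the untreated lines, against 10 and 10. For IFN-β in CFPAC1, no centring moved the median of all genes to -0.10, against 0.04, and the calls over all genes to 67 higher and 75 lower, against 105 and 48. Fits of the 4 libraries of a comparison alone called 0 genes of all for IFN-β in CFPAC1, the knockout clones and the WT clones. With the replicate block, 19 genes were called in the untreated lines, 17 with IFN-β in both lines and 0 elsewhere. Same-numbered libraries correlated between -0.15 and 0.21 in their deviations from the group means, highest between untreated and IFN-β CFPAC1. With 1 deviation per group, this cannot tell whether the numbers pair the libraries. The calls of GPI and PKM in the untreated lines were lost in 11 and 10 of 17 alternatives, and those of PDK2 and PKM with IFN-β in 10 and 9. LDHB, PFKFB2 and SLC2A1 kept their call in both line comparisons under every alternative that could be run for them. With 2 libraries a group and unknown depth, small changes in covered length cannot be resolved.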
